A study of Mus musculus with 18 samples.

Results

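The comparison set tumours grown in mice against cultured cells of the same line, both carrying a control shRNA. It used 9 of the 18 libraries of the series: every tumour labelled shCTL (5 libraries) and every cell culture labelled shCTL (2 libraries of batch 1 and 2 of batch 2), chosen by those labels alone. B16F10 is a mouse melanoma line of the C57BL/6J strain. All 9 samples carried a lentiviral scrambled shRNA in the pLKO.1 vector, and infected cells had been selected with puromycin or blasticidin. The cultures grew in DMEM with serum, and the tumours grew in immunocompetent female C57BL/6 mice that were 6 to 8 weeks old. The labels call the tumours both xenografts and a homograft model, and they do not give the site or the time of growth. The same series holds 9 libraries with an shRNA against Hgs (shHrs), used here only for a side by side reading.

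A tumour piece holds RNA of the melanoma cells and of the host cells that enter it, such as macrophages, lymphocytes, fibroblasts and vessel cells, while a culture holds melanoma cells alone. Pigment cells follow the transcription factor Mitf, which turns on the enzymes that make melanin. Interferons made by immune cells raise the genes that cut peptides and load them onto MHC class I molecules for display to T cells, and B16 cells in culture are known for displaying little MHC class I.

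No tumour library belongs to a culture batch in the labels. Growth in the host therefore cannot be told apart from the sequencing run or the handling of the samples. In bulk RNA, fewer cells of a type and less RNA per cell cannot be told apart either, and a gene made by both melanoma and host cells gives 1 summed value. The labels speak of biological repeats, but whether the 2 cultures of each batch were separate ones is not stated there. The p-values therefore measure the spread between libraries, which may be partly technical. Total counts ran from 17.6 to 22.05 M in tumours and from 18.6 to 25.3 M in cultures, with M for 1000000 counts. Levels are given as CPM, counts per M after TMM scaling of the library totals. Batch 1 culture 2 stood apart from the other cultures for several genes named below. Values without 1 library are given where leaving it out changed whether a gene described below passed the adjusted p threshold. They are also given where that moved a printed fold change of a called gene by over 1.5 times.

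Hgs, the gene that the shRNA of the other libraries of the series targets, measured 107, 99.2, 113, 109 and 97 CPM in tumours 1 to 5, 95.3 and 115 CPM in the batch 1 cultures and 98.6 and 106 CPM in the batch 2 cultures. Tumours and cultures overlapped, and the difference did not pass the test (log2 fold change 0.02, SE 0.09, edgeR adjusted p = 0.841). Xist, the RNA that coats the inactive X chromosome of female cells, measured 7.25, 38, 11, 15.2 and 40.2 CPM in tumours 1 to 5, 0.551 and 0.112 CPM in the batch 1 cultures and 0.368 and 0.165 CPM in the batch 2 cultures. Every tumour was above every culture, and tumours 2 and 5 were highest (log2 fold change 6.16, SE 0.73, edgeR adjusted p = 8.56e-05). By the rule given below, Xist entered the test through the tumours alone, which favours a higher level there. Without batch 1 culture 1 its log2 fold change was 6.96. The 4 Y-linked genes examined had at most 1 count in any of the 9 libraries.

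Each gene was tested with edgeR's quasi-likelihood test on the counts, with 1 mean for the tumours and 1 for each culture batch, and tumours were set against the average of both batches. A gene was called when its Benjamini-Hochberg adjusted p was under 0.05 and its fold change had the same sign against each batch. Of 13931 genes tested, 4307 (30.9%) were called higher and 3568 (25.6%) lower in tumours. A gene entered the test when at least 2 libraries reached 0.507 CPM. By that rule 1475 genes entered through the tumours alone, which favours a higher level there, and of the other 12456 genes 3077 (24.7%) were called higher. Counts for lists with many such genes are therefore descriptions. The direction rule removed 100 genes that had passed the threshold. A change of at least 2-fold was seen in 2183 of the higher and 1299 of the lower genes, and 404 of the higher genes had 0 counts in all 4 cultures. Against batch 1 alone 6372 genes (45.7%) passed, 3382 of them higher, and against batch 2 alone 7062 (50.7%) passed, 3798 of them higher. With the threshold applied against each batch on its own, 2689 genes were higher and 2233 lower against both. The median log2 fold change of all genes tested was 0.04.

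**Figure D1:**
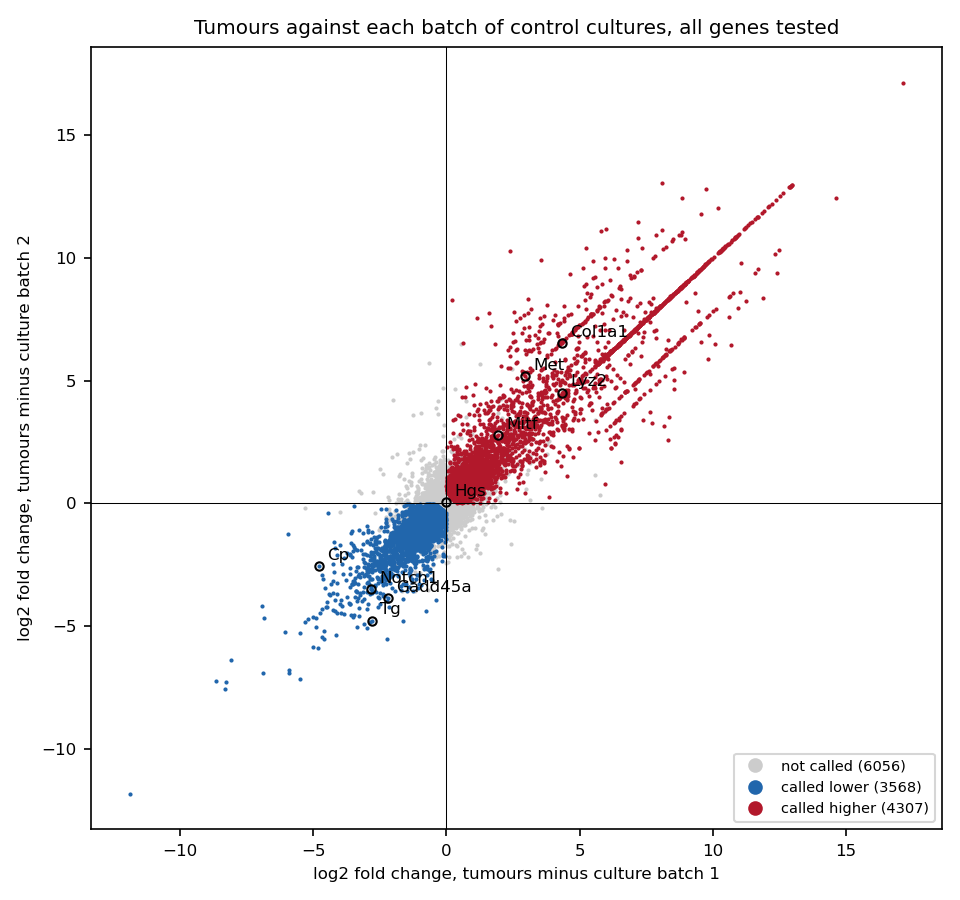
Log2 fold change of each of the 13931 genes tested, tumours minus culture batch 1 (horizontal axis) against tumours minus culture batch 2 (vertical axis), coloured by call; circles mark 9 named genes. Called genes lie in the upper right and lower left corners because the call requires 1 sign, both axes share the 5 tumours, and the straight streaks hold genes with 0 or few counts in the cultures, whose fitted values depend on the prior count.

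Most genes of the pigment cell lineage were higher in tumours, and their mean log2 CPM was even across the 5 (8.65 to 8.90). Of 21 tested genes in the melanocyte list, 19 were called higher and 2 lower, with a median log2 fold change of 1.02. Against batch 1 alone 13 passed as higher, and against batch 2 alone 17. The list summed to 27470 to 34370 CPM in tumours and 16750 to 27500 CPM in cultures. By that sum tumour 5 lay just below batch 1 culture 1. Mitf (chromosome 6, 97807052 to 98021349 on GRCm38), the lineage transcription factor, measured 1231, 1309, 955, 1166 and 846 CPM in tumours 1 to 5, 296 and 279 CPM in the batch 1 cultures and 187 and 134 CPM in the batch 2 cultures. The lowest tumour was well above the highest culture (log2 fold change 2.36, SE 0.16, edgeR adjusted p = 4.34e-06). Tyr (chromosome 7, 87424771 to 87493512), the rate-limiting enzyme of melanin synthesis, measured 718, 736, 649, 712 and 559.7 CPM in tumours 1 to 5, 175 and 59.7 CPM in the batch 1 cultures and 114 and 68.9 CPM in the batch 2 cultures. Here too the groups did not overlap (log2 fold change 2.70, SE 0.29, edgeR adjusted p = 5.35e-05), and in relative terms the tumours spread less than the cultures of either batch. Trpm1 (chromosome 7, 64153835 to 64269775), a cation channel gene that Mitf is known to activate, measured 786, 828, 520.1, 515 and 480.2 CPM in tumours 1 to 5, 139 and 15.4 CPM in the batch 1 cultures and 49.9 and 46.2 CPM in the batch 2 cultures. Batch 1 culture 2 was the lowest library and the tumours lay within a 2-fold range (log2 fold change 3.36, SE 0.53, edgeR adjusted p = 0.000454). Without batch 1 culture 1 the log2 fold change was 4.52.

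The melanosome proteins that were already abundant in culture rose by smaller factors. Pmel, the protein of melanosome fibrils, measured 4957, 4950.0, 4396, 4279.7 and 3748 CPM in tumours 1 to 5 and 3103, 1103, 2242 and 1506 CPM in the cultures, in the order of batch 1 and then batch 2. Dct, the enzyme that acts after Tyr, had a log2 fold change of 0.99 (SE 0.19), and Mlana, a melanosome antigen, one of 1.02 (SE 0.22). In both genes no tumour overlapped a culture. Sox10, the neural crest factor upstream of Mitf, differed little (log2 fold change 0.40, SE 0.12, edgeR adjusted p = 0.0139) and overlapped between groups. Its call was lost without batch 2 culture 2, at an edgeR adjusted p of 0.0545. Kit, the receptor of the melanocyte growth factor Kitl, was nearly absent in culture, with 0.276, 0.671, 0.276 and 0.619 CPM, and measured 21.4, 25.9, 38.6, 11.5 and 26.4 CPM in tumours 1 to 5 (log2 fold change 5.75, SE 0.45, edgeR adjusted p = 7.99e-06). The 2 lower members were Rab38, a melanosome traffic GTPase (log2 fold change -0.45, SE 0.17, edgeR adjusted p = 0.047), and Gpnmb, a melanosome glycoprotein (log2 fold change -0.51, SE 0.17, edgeR adjusted p = 0.026). Both were picked out after their values were seen, and in both the tumours overlapped the cultures.

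Promoter sequences of Tyr and Trpm1 are shown because both genes rose in every tumour and their windows hold CATGTG, an E-box that Mitf is known to bind. They are the 250 bases before the start in RefSeq (build GRCm38.p6), written 5′ to 3′ on the gene's own strand with the E-box in capitals. The Tyr window is chr7:87493513-87493762 on the minus strand, with the E-box starting 21 bases before the start, and the Trpm1 window is chr7:64153585-64153834 on the plus strand, with the E-box 141 bases before it.
Tyr: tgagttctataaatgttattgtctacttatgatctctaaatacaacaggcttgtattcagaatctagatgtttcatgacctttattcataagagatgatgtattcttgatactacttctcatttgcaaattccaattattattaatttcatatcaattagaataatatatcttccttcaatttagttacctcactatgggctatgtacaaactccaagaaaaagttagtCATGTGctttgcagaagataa
Trpm1: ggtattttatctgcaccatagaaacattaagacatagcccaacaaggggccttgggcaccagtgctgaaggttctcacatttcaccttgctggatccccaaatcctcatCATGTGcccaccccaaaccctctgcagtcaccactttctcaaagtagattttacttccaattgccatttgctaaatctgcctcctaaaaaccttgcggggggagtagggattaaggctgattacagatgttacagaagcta
Windows of 300 bases (250 before to 50 after a start) were searched on both strands. CATGTG stood in 7 of the 14 melanocyte genes with a RefSeq window (50%) and in 10.6% of the 11037 tested genes with one. CACGTG, the other E-box of Mitf, stood in 3 of those 14 (21.4%), against 11.5% of all. A match is a description of letters and not a binding site.

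Met, the receptor of hepatocyte growth factor and a gene that Mitf is known to activate, was among the largest differences of an abundant gene. Met (chromosome 6, 17463800 to 17573980) measured 1941, 2081, 1804, 1482 and 1623 CPM in tumours 1 to 5, 215 and 252 CPM in the batch 1 cultures and 51.5 and 47.6 CPM in the batch 2 cultures. All 5 tumours were within a narrow band, and the batch 1 cultures were above the batch 2 cultures (log2 fold change 4.05, SE 0.14, edgeR adjusted p = 1.23e-07). The log2 fold change was 2.94 against batch 1 and 5.17 against batch 2.

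**Figure D2:**
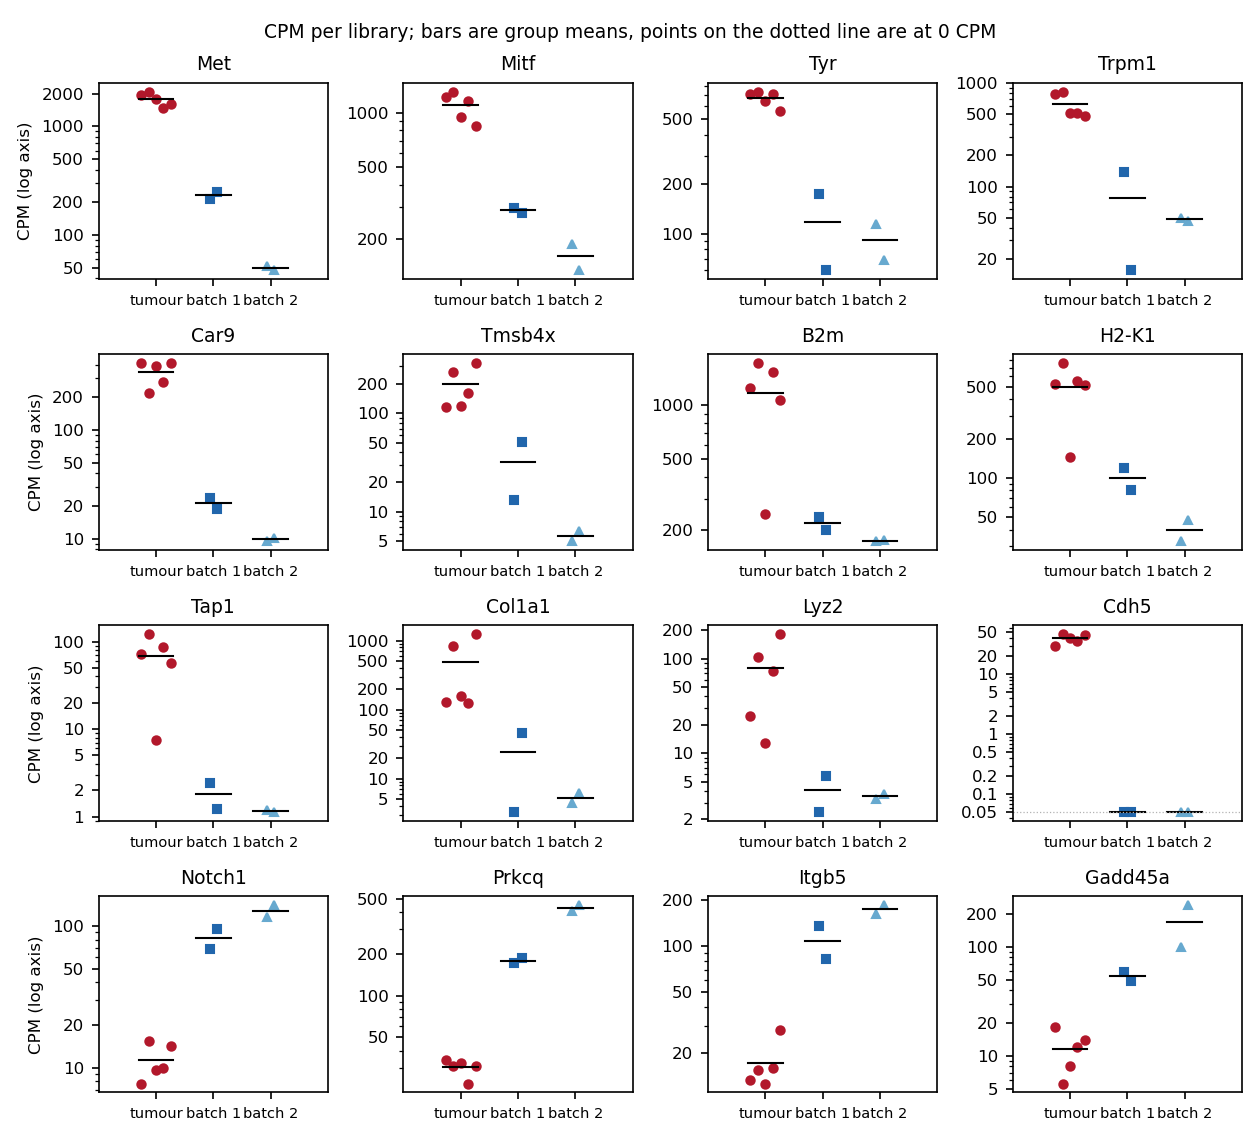
CPM (log axis) in each of the 9 libraries for 16 genes, with bars at the group means. Met, Mitf, Tyr and Cdh5 lie close together in the 5 tumours, while B2m, H2-K1 and Tap1 are lowest in tumour 3 (the middle tumour point) and Col1a1 is highest in tumours 2 and 5.

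Antigen presentation genes were higher in tumours as a group, and tumour 3 was the lowest of the 5. Of 20 tested genes in the MHC class I list, 19 were called higher and none lower, with a median log2 fold change of 2.60. The member that was not called was Tapbpl. B2m (chromosome 2, 122147686 to 122153083), the light chain of every MHC class I molecule, measured 1244, 1726, 246, 1539.6 and 1075 CPM in tumours 1 to 5, 238 and 199.9 CPM in the batch 1 cultures and 174 and 177 CPM in the batch 2 cultures. Tumour 3 was only slightly above the cultures, and the other 4 tumours were far above them (log2 fold change 2.57, SE 0.46, edgeR adjusted p = 0.000968). H2-K1, a class I heavy chain, measured 525, 761, 146, 549 and 514 CPM in tumours 1 to 5, 119 and 80.1 CPM in the batch 1 cultures and 32.5 and 47.2 CPM in the batch 2 cultures. The order was the same, with tumour 3 close to batch 1 culture 1 (log2 fold change 2.98, SE 0.41, edgeR adjusted p = 0.000222). Tap1 (chromosome 17, 34187553 to 34197225), a subunit of the pump that carries peptides into the endoplasmic reticulum, measured 72.5, 122, 7.42, 87.2 and 56.4 CPM in tumours 1 to 5, 2.4 and 1.23 CPM in the batch 1 cultures and 1.2 and 1.11 CPM in the batch 2 cultures. No tumour overlapped a culture (log2 fold change 5.55, SE 0.74, edgeR adjusted p = 0.000183).

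Subunits of the immunoproteasome, the form that cuts peptides for class I molecules, were at or near 0 in culture. Psmb8 (chromosome 17, 34197721 to 34201454) measured 29.8, 102, 1.48, 70.3 and 46.1 CPM in tumours 1 to 5 and 0 counts in each culture. Taking 3 counts over the 4 cultures as the floor, it was at least 1512-fold higher in tumours, with tumour 3 far below the rest. Psmb9, a second such subunit, measured 23.3, 59.7, 1.78, 42.7 and 28.1 CPM in tumours 1 to 5, 0.157 and 0.112 CPM in the batch 1 cultures and 0.046 and 0.124 CPM in the batch 2 cultures. Its pooled level was 284-fold higher in tumours. The RefSeq starts of Tap1 and Psmb9 lie 226 bases apart on chromosome 17.

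The MHC class II list, whose genes serve antigen-presenting cells, had 12 members in the counts, of which 9 were tested and called higher, 5 of them having entered through the tumours alone. The median log2 fold change was 5.48, or 4.30 with members of 3 or fewer culture counts set at the floor. H2-Aa, a class II chain, measured 16, 106, 2.02, 56.7 and 50.9 CPM in tumours 1 to 5 and 0 counts in each culture, which made it at least 1403-fold higher. Cd74, the invariant chain, measured 42.3, 279, 5.87, 145 and 153 CPM in tumours 1 to 5, 0.984 and 4.14 CPM in the batch 1 cultures and 9.38 and 23.6 CPM in the batch 2 cultures. Tumour 3 lay within the range of the cultures for Cd74, and the batch 2 cultures were above those of batch 1 (log2 fold change 4.30, SE 0.98, edgeR adjusted p = 0.00398). Ciita, the activator of class II genes, overlapped too (log2 fold change 2.49, SE 0.76, edgeR adjusted p = 0.0174). Without batch 1 culture 2 the log2 fold change of Cd74 was 4.93. Leaving out batch 2 culture 1 or batch 2 culture 2 ended the call of Ciita, at adjusted p of 0.0537 and 0.0615.

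Interferon response genes were also lowest in tumour 3. In the list of interferon gamma targets 18 of 21 were called higher and none lower (median 4.37). In the list of type I interferon targets 29 of 39 were higher and none lower (median 1.79). Among members that did not enter through the tumours alone, 10 of 13 and 20 of 30 were higher, in that order. The mean log2 CPM of the type I list in tumour 3 was 1.83, within the culture range of 1.37 to 2.35. Of the 39 type I genes, 17 passed as higher against batch 1 alone and 24 against batch 2 alone. Igtp, an interferon-induced GTPase, measured 51.5, 152, 3.2, 87.5 and 47.7 CPM in tumours 1 to 5, 2.72 and 1.68 CPM in the batch 1 cultures and 0.644 and 1.03 CPM in the batch 2 cultures. The groups did not overlap, but tumour 3 was close to batch 1 culture 1 (log2 fold change 5.63, SE 0.95, edgeR adjusted p = 0.000695). Iigp1, another such GTPase, measured 27.8, 111, 2.91, 69 and 35.7 CPM in tumours 1 to 5 and 0 counts in each culture, at least 1498-fold higher. Irf7, the factor that amplifies type I interferon, measured 8.37, 24.1, 1.9, 10.1 and 28.1 CPM in tumours 1 to 5, 0.276 and 0.727 CPM in the batch 1 cultures and 0.184 and 0.165 CPM in the batch 2 cultures. Tumours 2 and 5 were highest and tumour 3 lowest (log2 fold change 5.62, SE 0.84, edgeR adjusted p = 0.000347). Irf7 entered the test through the tumours alone, which favours a higher level there. Oasl2, an antiviral protein of the OAS family, rose to 11.5, 32.3, 2.79, 13.9 and 27 CPM in tumours 1 to 5 from 0.63, 0.28, 0.046 and 0.413 CPM in the cultures.

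Some well known interferon genes differed less. Isg15, a ubiquitin-like modifier, measured 10.2, 19.5, 3.38, 13.6 and 16.4 CPM in tumours 1 to 5, 7.56 and 5.54 CPM in the batch 1 cultures and 3.26 and 6.28 CPM in the batch 2 cultures. Its call was marginal (log2 fold change 1.17, SE 0.43, edgeR adjusted p = 0.0399) and was lost when any 1 library other than tumour 3 or batch 2 culture 2 was left out, at edgeR adjusted p from 0.0535 to 0.138. Ifit1, which binds viral RNA, lost its call (log2 fold change 1.83, SE 0.62, edgeR adjusted p = 0.0282) without tumour 2, tumour 4 or any 1 culture, at edgeR adjusted p from 0.0512 to 0.0954. Cxcl10, a chemokine of both interferon pathways, measured 77.9, 79, 35.8, 91.2 and 67.2 CPM in tumours 1 to 5, 5.04 and 60.8 CPM in the batch 1 cultures and 20.7 and 54.2 CPM in the batch 2 cultures and did not pass the test (log2 fold change 1.01, SE 0.57, edgeR adjusted p = 0.158). Batch 1 culture 2 and batch 2 culture 2 lay among the tumours, and without batch 1 culture 2 Cxcl10 passed (log2 fold change 2.34, edgeR adjusted p = 0.00125). The genes for interferon receptors and their kinases and factors showed no common direction, with 5 of 13 higher and 2 lower (Jak1 and Tyk2), and 3 higher without tumour 5 or without batch 2 culture 1.

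These calls differed between tools. With limma voom in place of edgeR the calls were 1 of 9 in the class II list, 8 of 21 in the interferon gamma list and 17 of 39 in the type I list, while the main counts over all genes moved little. Other lists that moved were fibroblasts (10 of 20), complement (6 of 15), fat cells (5 of 11), proteases (5 of 18), erythroid cells (2 of 6) and skeletal muscle (2 of 16). The mean log2 CPM of the 24 macrophage genes was lowest in tumour 3 and next lowest in tumour 1, and the summed level of those genes was 967 to 1844 CPM in tumours and 372 to 752 CPM in cultures. Apoe, a lipid carrier that these cultures also expressed, made up most of both sums, with 914 to 1109 CPM in tumours and 336 to 739 CPM in cultures, and 16 of the 24 genes were at 0 in all cultures. The macrophage level moved with the class II and interferon lists across tumours, and its part in those results was not tested.

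Promoters of B2m, Igtp and H2-Eb1, a class II chain, are shown because each holds the element that its group is known for. The windows are built as for Tyr. Capitals mark GAAANNGAA, the core of the interferon-stimulated response element (139 bases before the start in B2m and 34 in Igtp), and CTAGCAAC, the core of the X box of class II genes (94 bases before the start in H2-Eb1). B2m is chr2:122147437-122147686, Igtp is chr11:58199306-58199555 and H2-Eb1 is chr17:34305617-34305866, all on the plus strand.
B2m: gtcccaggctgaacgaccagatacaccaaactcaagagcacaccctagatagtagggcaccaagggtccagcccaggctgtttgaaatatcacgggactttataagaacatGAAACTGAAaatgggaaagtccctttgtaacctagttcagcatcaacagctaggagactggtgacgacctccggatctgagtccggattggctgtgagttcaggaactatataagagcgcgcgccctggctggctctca
Igtp: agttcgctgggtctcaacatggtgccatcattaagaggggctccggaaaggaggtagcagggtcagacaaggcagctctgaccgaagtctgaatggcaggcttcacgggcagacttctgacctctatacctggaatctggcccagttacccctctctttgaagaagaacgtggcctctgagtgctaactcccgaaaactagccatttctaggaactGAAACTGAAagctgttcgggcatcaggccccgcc
H2-Eb1: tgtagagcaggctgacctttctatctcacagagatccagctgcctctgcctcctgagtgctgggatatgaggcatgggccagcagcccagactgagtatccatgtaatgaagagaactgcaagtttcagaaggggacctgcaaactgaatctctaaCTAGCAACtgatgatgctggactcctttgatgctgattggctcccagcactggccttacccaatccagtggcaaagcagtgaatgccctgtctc
GAAANNGAA stood in 13 of 16 interferon gamma genes with a window (81.2%), in 16 of 29 type I genes (55.2%) and in 4 of 17 class I genes (23.5%), against 8.64% of all tested genes with a window. CTAGCAAC stood in 2 of 6 class II genes and in 1.51% of all. The genes to print were chosen after the matches were seen.

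Most markers of macrophages and endothelial cells were at or near 0 in culture and present in every tumour. The macrophage and monocyte list had 24 of 24 tested members called higher, 16 of them with 0 counts in all cultures and 20 having entered through the tumours alone. Its median log2 fold change was 9.05, or 6.96 with members of 3 or fewer culture counts at the floor. C1qa, a chain of complement C1q made by macrophages, measured 14, 73.8, 3.38, 45.2 and 99.4 CPM in tumours 1 to 5 and 0 counts in each culture, at least 1406-fold higher. Csf1r, the receptor that keeps macrophages alive, measured 3.65, 24.5, 1.84, 16.4 and 31.7 CPM in tumours 1 to 5, 0 and 0.559 CPM in the batch 1 cultures and 0.23 and 0 CPM in the batch 2 cultures. Lyz2, lysozyme of myeloid cells, was detectable in the cultures too, with 24.5, 105, 12.7, 74.9 and 182 CPM in tumours 1 to 5, 2.36 and 5.76 CPM in the batch 1 cultures and 3.31 and 3.67 CPM in the batch 2 cultures. For all 3 genes tumours 2 and 5 were high, tumour 4 was between and tumours 1 and 3 were low.

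Lymphocyte markers were scarce. In the T cell list 10 of 16 members were tested, 8 of them through the tumours alone, and 8 were called higher, and the list summed to 23.1 to 57.1 CPM in tumours and 1.61 to 3.76 CPM in cultures. Cd3e, a chain of the T cell receptor complex, measured 0.827, 0.704, 0.0593, 0.636 and 0.504 CPM in tumours 1 to 5 and 0 counts in each culture. Cd8a, the co-receptor of cytotoxic T cells, measured 0.195, 1.71, 0, 0.81 and 0.616 CPM in tumours 1 to 5, with 1 count in all cultures together, and its ratio was 60.8 (95% counting interval 10.5 to 2441). Cd4 did not pass (log2 fold change 1.01, SE 0.84, edgeR adjusted p = 0.33) and Foxp3 was not called either. The T cell count was 5 without tumour 2 and 4 without tumour 5. Of 12 natural killer cell markers 5 were tested, 4 of them through the tumours alone, and the 5 were called higher, with 3 called without tumour 2 or without tumour 5. Of 12 neutrophil markers 5 were tested, each through the tumours alone. These 5 were called higher, 1 when tumour 1, 2 or 5 was left out and 3 without any 1 culture other than batch 1 culture 2. The summed level in tumours reached at most 7.49 CPM for natural killer cells and 6.05 CPM for neutrophils. Dendritic cell markers were 5 of 9 higher and 2 lower (Zbtb46 and Batf3). Of these 9, 5 had entered through the tumours alone, and of the other 4 members 1 was higher and 2 lower. Fscn1, an actin bundler on the dendritic cell list, gave most of its sum.

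Endothelial genes were even across the 5 tumours. In that list 18 of 20 members were called higher and none lower, with Eng and Egfl7 not called and 16 having entered through the tumours alone. Those 2 genes were abundant in the cultures as well, so that the summed level was 311 to 447 CPM there and 537 to 690.2 CPM in tumours. Cdh5 (chromosome 8, 104101625 to 104144511), the cadherin of vessel junctions, measured 29.8, 46.5, 40.4, 35.7 and 45.5 CPM in tumours 1 to 5 and 0 counts in each culture, at least 1174-fold higher. Pecam1, an adhesion molecule of endothelium, measured 28.6, 41, 36.6, 30.7 and 43.4 CPM in tumours 1 to 5, 0.0787 and 0 CPM in the batch 1 cultures and 0.23 and 0.0826 CPM in the batch 2 cultures. Flt1, a receptor of Vegfa, measured 17.2, 24.2, 25.2, 17.8 and 25.9 CPM in tumours 1 to 5 against 1 count in all cultures. In each of these 3 genes the highest tumour was less than 2 times the lowest, and tumour 3 was not low.

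Pericyte and smooth muscle genes were mixed, with 8 of 14 higher and 3 lower. The lower ones were Pdgfrb, Des and Mcam, the last a gene that melanoma cells also express. Of the 14, 6 had entered through the tumours alone. Of the other 8 members 2 were higher (25%, against 24.7% of all such genes) and 3 lower. The list summed to 350 to 508 CPM in tumours and 405 to 1358 CPM in cultures. Rgs5, a pericyte regulator of G proteins, measured 10.5, 16.2, 15.7, 14.8 and 22.4 CPM in tumours 1 to 5 and 0 counts in each culture. Acta2, smooth muscle actin, measured 49.8, 67.2, 61.5, 55.9 and 89.2 CPM in tumours 1 to 5, 0.0787 and 2.18 CPM in the batch 1 cultures and 0.046 and 0 CPM in the batch 2 cultures. Pdgfrb, a receptor of pericytes, was higher in culture (13, 19.9, 22.1, 16.9 and 31.8 CPM in tumours 1 to 5, 28.9 and 29.9 CPM in the batch 1 cultures and 35.7 and 47.3 CPM in the batch 2 cultures), overlapped between groups and lost its call without batch 2 culture 2, at an adjusted p of 0.062.

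Fibroblast and matrix genes were highest in tumours 2 and 5. The fibroblast list had 16 of 20 members higher and 1 lower (Gsn), with 9 having entered through the tumours alone and 7 of the other 11 higher. Col1a1 (chromosome 11, 94936224 to 94953042), a chain of type I collagen, measured 127, 829.9, 155, 124 and 1237 CPM in tumours 1 to 5, 3.23 and 45.9 CPM in the batch 1 cultures and 4.46 and 6.11 CPM in the batch 2 cultures. Tumours 2 and 5 were several times above the other 3, and batch 1 culture 2 was well above the other cultures (log2 fold change 5.45, SE 1.07, edgeR adjusted p = 0.00176). Without that culture the log2 fold change was 6.89, and without tumour 5 it was 4.76. Col3a1 was likewise highest in tumours 5 and 2, with 56.3, 457, 60.5, 72.7 and 900.0 CPM in tumours 1 to 5, 0.709 and 0.783 CPM in the batch 1 cultures and 0.414 and 1.07 CPM in the batch 2 cultures. Dcn, a proteoglycan of fibroblasts, measured 0.73, 14.5, 0.831, 1.79 and 43.6 CPM in tumours 1 to 5 with 2 counts in all cultures, and tumours 1 and 3 were under 1 CPM. Among basement membrane and matrix genes 15 of 21 were higher and 4 lower, the lower ones being Lama5, Lamb2, Lamc1 and Hspg2. Without those that entered through the tumours alone 10 of 16 were higher. Nid2, a linker of basement membranes, was even across tumours (15.7, 22, 26.1, 18.3 and 23 CPM in tumours 1 to 5, 0.276 and 0.112 CPM in the batch 1 cultures and 0.138 and 0.0413 CPM in the batch 2 cultures).

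Other host tissues varied by tumour. Skeletal muscle markers had 10 of 16 called higher, every one of them overlapping the cultures in some tumour. Acta1, skeletal actin, measured 0.632, 7.69, 0.831, 14.9 and 44.9 CPM in tumours 1 to 5, 0.118 and 1.01 CPM in the batch 1 cultures and 0.138 and 0.0826 CPM in the batch 2 cultures, highest in tumour 5 and within the range of the cultures in tumours 1 and 3. The muscle count was 6 without batch 1 culture 1 or batch 2 culture 1 and 5 without batch 2 culture 2, and it was 2 with limma voom in place of edgeR and 2 with a single mean for the 4 cultures. Of the 16, 7 had entered through the tumours alone. Erythroid genes were 5 of 6 higher (2 with limma voom), and the 5 had entered that way. Beta-s, a beta globin, measured 1763, 1440.0, 472, 54.3 and 753 CPM in tumours 1 to 5 and 0 counts in each culture, and tumour 4 was by far the lowest. Fat cell genes were 8 of 11 higher, and those 8 had entered that way too. Fabp4, made by fat cells and by vessels, measured 23.6, 63.7, 39.1, 36 and 101 CPM in tumours 1 to 5, 0.0787 and 0.336 CPM in the batch 1 cultures and 0 and 0 CPM in the batch 2 cultures. The mast cell and eosinophil list had no tested member and summed to at most 2.86 CPM in any library. Krt14, the keratin of basal skin cells, was not tested either.

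**Figure D3:**
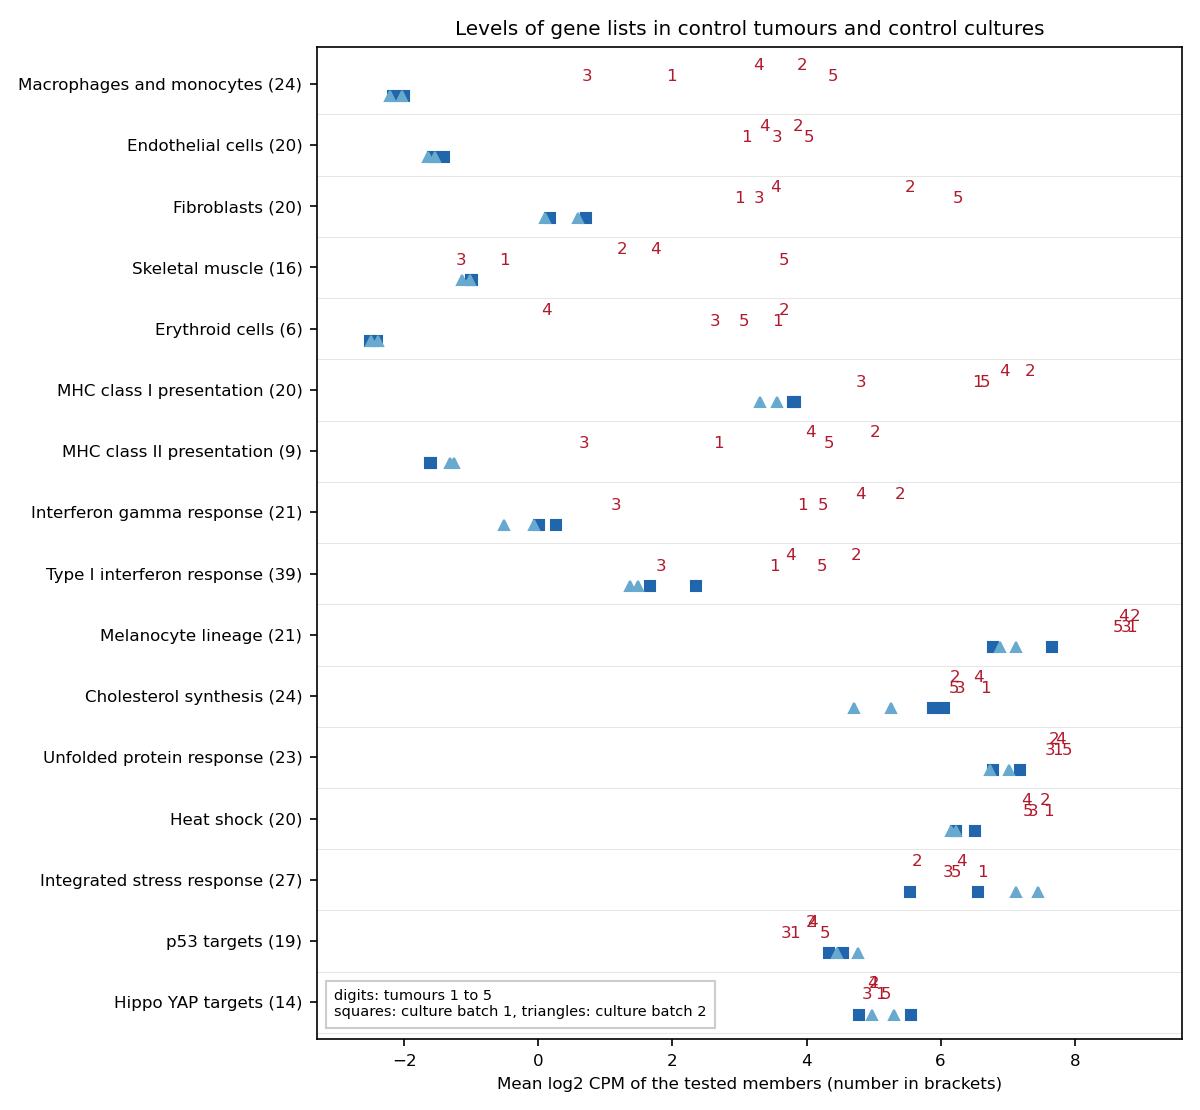
Mean log2 CPM of the tested members of 16 gene lists in each library, with digits for tumours 1 to 5, squares for culture batch 1 and triangles for culture batch 2. Tumour 3 is the lowest tumour for macrophage, MHC and interferon lists and is not the lowest for endothelial cells, and melanocyte genes form a tight cluster of tumours from 8.65 to 8.90 above the cultures at 6.78 to 7.66.

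Most chemokines and their receptors entered the test through the tumours alone (18 of 23 and 8 of 9). Chemokines had 17 of 23 called higher and 1 lower, and chemokine receptors 8 of 9 higher. Of the 5 chemokines that entered otherwise none was called higher. Cxcl9, which draws T cells, measured 12.7, 51.8, 1.19, 31 and 20.3 CPM in tumours 1 to 5 with 3 counts in all cultures, a ratio of 711 (95% counting interval 243 to 3451). Cxcl1, which draws neutrophils, was the lower one, with 1.07, 0.503, 0, 0.347 and 1.68 CPM in tumours 1 to 5, 2.09 and 168 CPM in the batch 1 cultures and 7.77 and 29.1 CPM in the batch 2 cultures. Batch 1 culture 2 was its highest library by far, and no tumour overlapped a culture (log2 fold change -5.75, SE 1.14, edgeR adjusted p = 0.00183). Without that culture the log2 fold change was -3.10, and without batch 2 culture 2 it was -5.12. Ccl5 did not pass (log2 fold change 1.33, SE 0.52, edgeR adjusted p = 0.0505), but it passed without tumour 3, batch 1 culture 2 or batch 2 culture 2, at edgeR adjusted p of 0.0109, 0.0279 and 0.0415. Complement genes were 11 of 15 higher, and 2 lower (C1s and Cd59a), and 7 of the 15 had entered through the tumours alone.

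The immune checkpoint list holds ligands and receptors that restrain T cells and others, such as Icosl, that activate them. Of 16 tested members 11 were higher and none lower, and 4 of 8 were higher without those that entered through the tumours alone. Cd274, the ligand PD-L1, measured 18, 33.1, 8.84, 19.3 and 18.6 CPM in tumours 1 to 5, 12 and 5.87 CPM in the batch 1 cultures and 8.46 and 11.3 CPM in the batch 2 cultures. The groups overlapped and the call (log2 fold change 1.06, SE 0.35, edgeR adjusted p = 0.0243) was lost without tumour 2, without batch 1 culture 2 or without batch 2 culture 1, at adjusted p from 0.0546 to 0.0879. Lgals9, a ligand of Tim-3, was more clearly higher (69.9, 89.9, 46.6, 82.1 and 74.6 CPM in tumours 1 to 5, 37.7 and 31.2 CPM in the batch 1 cultures and 18.5 and 11.8 CPM in the batch 2 cultures), with no overlap (log2 fold change 1.67, SE 0.20, edgeR adjusted p = 0.000102). Among inflammatory cytokines 7 of 14 were higher and 2 lower, and 4 of 10 were higher without those that entered through the tumours alone. Tgfb1 measured 55.5, 51.5, 34.5, 44.5 and 55.1 CPM in tumours 1 to 5, 5.16 and 4.08 CPM in the batch 1 cultures and 7.77 and 15.8 CPM in the batch 2 cultures, all tumours above all cultures (log2 fold change 2.70, SE 0.23, edgeR adjusted p = 1.39e-05). Csf1, the growth factor of macrophages, was lower in tumours (11.6, 24.5, 11.3, 18 and 31 CPM in tumours 1 to 5, 27.6 and 266 CPM in the batch 1 cultures and 59.3 and 167 CPM in the batch 2 cultures), with the 2 cultures of each batch far apart (log2 fold change -2.74, SE 0.59, edgeR adjusted p = 0.00306). Without batch 1 culture 2 the log2 fold change was -1.55. Tgfb3 was the other lower one (log2 fold change -1.60, SE 0.19, edgeR adjusted p = 8.18e-05), picked out after its value was seen.

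Genes of the response to low oxygen were split. Of 24 tested, 11 were called higher, 3 lower (Car12, Pfkfb3 and Pfkfb4) and 10 not called, with a median of 0.51, and medians of 0.05 against batch 1 and 0.78 against batch 2. Car9 (chromosome 4, 43506966 to 43513729), the carbonic anhydrase that marks hypoxic tumour cells, measured 411, 219, 386, 277 and 414 CPM in tumours 1 to 5, 23.9 and 18.7 CPM in the batch 1 cultures and 9.51 and 10.2 CPM in the batch 2 cultures. Every tumour was more than 9 times above every culture (log2 fold change 4.55, SE 0.23, edgeR adjusted p = 8.88e-07). Adm, a vasodilator peptide, measured 78.3, 37.4, 55.6, 29.6 and 61.6 CPM in tumours 1 to 5, 5.87 and 5.82 CPM in the batch 1 cultures and 2.57 and 2.56 CPM in the batch 2 cultures, again with no overlap (log2 fold change 3.76, SE 0.30, edgeR adjusted p = 8.68e-06). Vegfa, the vessel growth factor, did not pass (369, 189, 284, 209 and 359 CPM in tumours 1 to 5, 273 and 206 CPM in the batch 1 cultures and 179 and 247 CPM in the batch 2 cultures), with tumours and cultures mixed (log2 fold change 0.32, SE 0.22, edgeR adjusted p = 0.237).

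For glycolytic genes the result depended on the culture batch. In that list 5 of 20 were higher (8 without batch 1 culture 1), 3 lower and 12 not called, and the median was -0.25 against batch 1 and 1.33 against batch 2. Slc2a1, the glucose transporter Glut1, measured 351, 140.0, 251, 192 and 260.2 CPM in tumours 1 to 5, 170.5 and 192 CPM in the batch 1 cultures and 48.9 and 46.4 CPM in the batch 2 cultures. Batch 1 cultures lay inside the tumour range and batch 2 cultures far below it (log2 fold change 0.40 and 2.33). Slc16a3, a lactate exporter, had the same pattern, with 0.16 against batch 1 and 2.32 against batch 2. ACGTG, the core of the hypoxia response element, stood in 14 of 19 hypoxia genes and 13 of 19 glycolysis genes with a window, against 29.0% of all.

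Angiogenic ligands were 10 of 13 higher and none lower (median 2.42), and 6 of 9 were higher without those that entered through the tumours alone. Apln, the ligand apelin, measured 22.4, 22.9, 39.6, 26.2 and 39.9 CPM in tumours 1 to 5, 3.31 and 8.45 CPM in the batch 1 cultures and 0.644 and 0.661 CPM in the batch 2 cultures. Pdgfb, which recruits pericytes, measured 11.9, 12.1, 13.9, 11.2 and 14.5 CPM in tumours 1 to 5, 1.3 and 4.48 CPM in the batch 1 cultures and 0.414 and 0.784 CPM in the batch 2 cultures. Pgf, a relative of Vegfa, measured 44.4, 17.1, 26, 17.2 and 56.4 CPM in tumours 1 to 5, 10.2 and 11.1 CPM in the batch 1 cultures and 2.9 and 3.88 CPM in the batch 2 cultures. In all 3 genes the batch 1 cultures were above those of batch 2 and below every tumour.

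Stress programmes moved in different directions. The integrated stress response, in which Atf4 raises genes of amino acid supply, had 13 of 27 members called lower and 2 higher (Vldlr and Cbs), with a median of -0.82. Ddit3, the factor Chop, measured 152, 50.2, 64.6, 81.7 and 89.3 CPM in tumours 1 to 5, 224 and 67.4 CPM in the batch 1 cultures and 379.6 and 501 CPM in the batch 2 cultures. Batch 2 cultures were highest, while batch 1 culture 2 lay among the tumours (log2 fold change -1.53, SE 0.37, edgeR adjusted p = 0.00571). Trib3, a target of Ddit3, was also highest in the batch 2 cultures, with batch 1 culture 2 among the tumours (162, 37.9, 82.5, 95.1 and 102 CPM in tumours 1 to 5, 259.9 and 60.6 CPM in the batch 1 cultures and 515 and 720.5 CPM in the batch 2 cultures). Chac1, a glutathione-degrading target of Atf4, did not pass (log2 fold change -0.96, SE 0.47, edgeR adjusted p = 0.107), but it passed as lower without tumour 1 (log2 fold change -1.39, edgeR adjusted p = 0.0212) or without batch 1 culture 2 (-1.31 and 0.0236). The count of lower members was 13 with all libraries and 4 without batch 1 culture 1, and the median was -0.19 against batch 1 and -1.25 against batch 2. Against batch 1 alone 2 of the 27 members passed as lower and 3 as higher. Against batch 2 alone 20 passed as lower and 2 as higher, so the lower calls rested mainly on the batch 2 cultures. Among tRNA synthetases 5 of 20 were lower and 1 higher (Kars), a lower share close to the 25.6% of all genes. That count was 3 without batch 1 culture 1 or batch 2 culture 2 and 9 without batch 1 culture 2. TGATGNAA, the core of the Atf4 element, stood in 8 of 25 genes of the stress list with a window (32%), against 2.84% of all.

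Chaperones of the endoplasmic reticulum were higher. In the unfolded protein response list 19 of 23 were called higher and 1 lower (Ern1), with a median of 1.02. Dnajb9, a co-chaperone, measured 44, 46, 34.8, 52.2 and 58.6 CPM in tumours 1 to 5, 11.1 and 17.7 CPM in the batch 1 cultures and 12.6 and 17.1 CPM in the batch 2 cultures, with no overlap (log2 fold change 1.69, SE 0.19, edgeR adjusted p = 7.09e-05). Manf, a secreted stress protein, measured 214, 216, 215, 223 and 269.7 CPM in tumours 1 to 5, 62.4 and 137 CPM in the batch 1 cultures and 60.1 and 68.9 CPM in the batch 2 cultures (log2 fold change 1.50, SE 0.20, edgeR adjusted p = 0.000183). Hspa5, the central chaperone BiP, measured 1353, 1364, 1215, 1487 and 1557 CPM in tumours 1 to 5, 445 and 1074 CPM in the batch 1 cultures and 542 and 1135 CPM in the batch 2 cultures. It did not overlap, but its call (log2 fold change 0.81, SE 0.27, edgeR adjusted p = 0.0258) was lost without tumour 4, tumour 5, batch 1 culture 1 or batch 2 culture 1, at edgeR adjusted p from 0.0518 to 0.0931.

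Heat shock proteins of the cytosol were higher as well, with 15 of 20 called higher and 1 lower (Hspb8). Hspa1b, an inducible Hsp70, measured 148, 44.3, 38.6, 32.9 and 35.6 CPM in tumours 1 to 5, 7.72 and 8.5 CPM in the batch 1 cultures and 7.86 and 4.5 CPM in the batch 2 cultures, and tumour 1 was more than 3 times any other tumour (log2 fold change 3.08, SE 0.51, edgeR adjusted p = 0.000611). Without tumour 1 the log2 fold change was 2.41. Hsph1, which recycles Hsp70, was more even, with 202, 387, 296, 272 and 257 CPM in tumours 1 to 5, 69.4 and 98 CPM in the batch 1 cultures and 80.6 and 70 CPM in the batch 2 cultures (log2 fold change 1.83, SE 0.19, edgeR adjusted p = 3.79e-05). Hspb1, a small heat shock protein, measured 29.8, 12.3, 16.5, 5.96 and 9.64 CPM in tumours 1 to 5, 0.354 and 0.0559 CPM in the batch 1 cultures and 0.46 and 0.413 CPM in the batch 2 cultures. GAANNTTC, the core of the heat shock element, stood in 10 of 15 genes of the list with a window, against 6.93% of all.

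Sterol synthesis genes were mostly called higher, but the result depended on the culture batch. Of 24 tested, 19 were called higher and none lower, and the median was 0.82, with 0.35 against batch 1 and 1.31 against batch 2. Against batch 1 alone 7 of the 24 passed as higher and 1 as lower, and against batch 2 alone 23 passed as higher. Of all 13931 genes, 3382 passed as higher against batch 1 and 3798 against batch 2. Sc4mol, a sterol oxidase, measured 279, 166, 197, 225 and 171 CPM in tumours 1 to 5, 88.6 and 68.1 CPM in the batch 1 cultures and 46.1 and 34.1 CPM in the batch 2 cultures (log2 fold change 1.89, SE 0.18, edgeR adjusted p = 2.52e-05). CACCCCAC, the sterol element core, stood in 1 of 16 promoters of the list, against 3.82% of all.

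Few cell division genes passed the test. Of 28 mitosis genes 4 were higher and 2 lower, and of 28 replication genes 3 were higher and none lower. Mki67, the proliferation marker, measured 456, 517, 597, 472 and 456 CPM in tumours 1 to 5, 361 and 539 CPM in the batch 1 cultures and 452 and 225 CPM in the batch 2 cultures and did not pass (log2 fold change 0.36, SE 0.20, edgeR adjusted p = 0.155). Batch 2 culture 2 was the lowest library of all for Mki67, and the gene passed without batch 2 culture 1 (log2 fold change 0.64, edgeR adjusted p = 0.0106). The count of higher mitosis genes was 10 without batch 2 culture 1 and 7 without batch 1 culture 2.

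Targets of p53 were mostly lower in tumours. In that list 14 of 19 were called lower and 2 higher (Pmaip1 and Fas), with a median of -0.87 that was -0.92 against batch 1 and -0.76 against batch 2. Bbc3, the cell death protein Puma, measured 13, 8.65, 10.3, 14 and 12.2 CPM in tumours 1 to 5, 39.5 and 23.5 CPM in the batch 1 cultures and 54.7 and 62.8 CPM in the batch 2 cultures, with no overlap (log2 fold change -1.89, SE 0.18, edgeR adjusted p = 2.82e-05). Btg2, a brake on division, measured 7.83, 4.93, 3.44, 6.77 and 10 CPM in tumours 1 to 5, 21 and 18.8 CPM in the batch 1 cultures and 12.8 and 21.2 CPM in the batch 2 cultures (log2 fold change -1.48, SE 0.29, edgeR adjusted p = 0.00161). Gadd45a (chromosome 6, 67035096 to 67037457), which responds to DNA damage and to other stresses, measured 18.3, 5.58, 8.13, 12.1 and 14.1 CPM in tumours 1 to 5, 59.2 and 48.4 CPM in the batch 1 cultures and 101 and 240.1 CPM in the batch 2 cultures. All tumours were below all cultures, which the rule that named this gene required (log2 fold change -3.03, SE 0.35, edgeR adjusted p = 7.30e-05).

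Growth signalling genes gave a further contrast. Feedback genes of the MAPK pathway were 9 of 15 higher and 2 lower (Ccnd1 and Epha2). Etv5, an Ets factor raised by that pathway, measured 72.5, 54, 74.8, 109 and 62.9 CPM in tumours 1 to 5, 14.3 and 12.9 CPM in the batch 1 cultures and 2.16 and 6.44 CPM in the batch 2 cultures (log2 fold change 3.28, SE 0.31, edgeR adjusted p = 2.09e-05). Spry4, an inhibitor of it, measured 24.3, 19.1, 20.6, 24.9 and 25.2 CPM in tumours 1 to 5, 4.21 and 1.73 CPM in the batch 1 cultures and 0.781 and 4.42 CPM in the batch 2 cultures (log2 fold change 3.02, SE 0.42, edgeR adjusted p = 0.000237). Without batch 2 culture 2 the log2 fold change of Spry4 was 3.88. Immediate early genes were 9 of 21 higher and 1 lower. Fos measured 162, 35.3, 38.6, 40.1 and 63 CPM in tumours 1 to 5, 6.61 and 8.78 CPM in the batch 1 cultures and 2.57 and 3.96 CPM in the batch 2 cultures and was highest in tumour 1, as was Fosb (45.8, 2.11, 2.25, 3.3 and 3.08 CPM in tumours 1 to 5, 0.709 and 0.336 CPM in the batch 1 cultures and 1.1 and 1.11 CPM in the batch 2 cultures). Fosb lost its call (log2 fold change 3.87, SE 1.12, edgeR adjusted p = 0.0139) without batch 2 culture 1 or batch 2 culture 2, at adjusted p of 0.0554 and 0.0561, and without tumour 1 its log2 fold change was 1.79.

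Targets and members of the Hippo pathway, which restrains the coactivator Yap, were 9 of 14 lower and 4 higher, with a median of -1.03. Arhgef17, an exchange factor of small GTPases, measured 27.4, 28.2, 29.4, 26.4 and 32.8 CPM in tumours 1 to 5, 136 and 144 CPM in the batch 1 cultures and 124 and 122 CPM in the batch 2 cultures. Both groups were tight and far apart (log2 fold change -2.19, SE 0.08, edgeR adjusted p = 2.27e-07). Crim1, a membrane protein that binds growth factors, had a log2 fold change of -1.83 (SE 0.12). Ctgf, the best known Yap target, went the other way (89, 52.4, 56.8, 51.7 and 102 CPM in tumours 1 to 5, 4.68 and 28.3 CPM in the batch 1 cultures and 2.99 and 3.96 CPM in the batch 2 cultures), with no overlap (log2 fold change 3.22, SE 0.48, edgeR adjusted p = 0.000332). Without batch 1 culture 2 the log2 fold change was 4.11. Axl, a receptor kinase, overlapped (log2 fold change -1.25, SE 0.43, edgeR adjusted p = 0.0308) and lost its call without tumour 1, 4 or 5, batch 1 culture 2 or batch 2 culture 2, at edgeR adjusted p from 0.0523 to 0.146.

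Targets of NF-kB were split, with 6 of 17 higher and 7 lower, and 5 of the 6 had entered the test through the tumours alone. The lower ones included the pathway's own factors and inhibitors. Relb measured 16.1, 13.7, 10.1, 12.4 and 16.2 CPM in tumours 1 to 5, 21.2 and 57.9 CPM in the batch 1 cultures and 35.3 and 60.3 CPM in the batch 2 cultures (log2 fold change -1.66, SE 0.28, edgeR adjusted p = 0.00078), and Nfkbiz measured 11.4, 10.6, 10.5, 10.1 and 15.4 CPM in tumours 1 to 5, 31.4 and 86.1 CPM in the batch 1 cultures and 24.3 and 25.8 CPM in the batch 2 cultures (log2 fold change -1.72, SE 0.26, edgeR adjusted p = 0.000354). Batch 1 culture 2 was the highest library for Nfkbiz. Tnfaip2, also on the list, measured 69.3, 44.6, 59.3, 64.4 and 70.6 CPM in tumours 1 to 5, 234 and 248 CPM in the batch 1 cultures and 298 and 346 CPM in the batch 2 cultures, with no overlap (log2 fold change -2.18, SE 0.14, edgeR adjusted p = 2.46e-06).

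Adhesion and invasion genes moved both ways. Integrins were 8 of 14 higher and 4 lower (5 higher without batch 1 culture 1). Itgb5 (chromosome 16, 33829665 to 33949338), the beta chain of a vitronectin receptor, measured 13.3, 15.4, 12.6, 16 and 28.2 CPM in tumours 1 to 5, 135 and 82.5 CPM in the batch 1 cultures and 164 and 186 CPM in the batch 2 cultures. Tumour 5 was the highest tumour and still below every culture (log2 fold change -3.01, SE 0.25, edgeR adjusted p = 1.09e-05). Itga3, a chain of laminin receptors, measured 11, 7.39, 9.73, 6.88 and 7.4 CPM in tumours 1 to 5, 0.354 and 0.895 CPM in the batch 1 cultures and 0.506 and 0.33 CPM in the batch 2 cultures (log2 fold change 4.06, SE 0.34, edgeR adjusted p = 1.16e-05). Itgb2, a chain of leukocyte integrins, measured 9.58, 21, 7.24, 13.5 and 19.9 CPM in tumours 1 to 5, 2.09 and 1.12 CPM in the batch 1 cultures and 1.93 and 2.64 CPM in the batch 2 cultures. Genes of invasive or dedifferentiated melanoma were 6 of 14 higher and 6 lower. Without those that entered through the tumours alone 3 of 11 were higher (27.3%, against 24.7% of all such genes). Ngfr, a marker of neural crest-like melanoma cells, measured 0.243, 0.503, 0.237, 0.347 and 0.896 CPM in tumours 1 to 5, 6.1 and 54.5 CPM in the batch 1 cultures and 15.7 and 18 CPM in the batch 2 cultures. Every tumour was under 1 CPM, and every culture was above 6 CPM (log2 fold change -5.65, SE 0.65, edgeR adjusted p = 7.05e-05). Without batch 1 culture 2 the log2 fold change was -4.50. Zeb1, a mesenchymal factor, was higher (4.14, 7.49, 4.75, 3.18 and 8.8 CPM in tumours 1 to 5, 0.354 and 0.168 CPM in the batch 1 cultures and 1.01 and 1.98 CPM in the batch 2 cultures).

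Proteases and their inhibitors were 9 of 18 higher and 6 lower. Without those that entered through the tumours alone 3 of 11 were higher (27.3%, against 24.7% of all such genes). Plau, the urokinase activator of plasminogen, measured 14.3, 16.7, 9.73, 16.1 and 20.5 CPM in tumours 1 to 5, 0 and 0.168 CPM in the batch 1 cultures and 0.0919 and 0.0826 CPM in the batch 2 cultures. Mmp11 was lower in every tumour (3.75, 2.67, 3.92, 3.88 and 4.99 CPM in tumours 1 to 5, 25.1 and 15.5 CPM in the batch 1 cultures and 34.7 and 36.6 CPM in the batch 2 cultures).

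Housekeeping machinery shifted by smaller amounts. Cytosolic ribosomal protein genes were 23 of 34 higher and none lower, with a median of only 0.38. Rpl38 differed most among those named (516, 407, 529, 438 and 591 CPM in tumours 1 to 5, 106 and 134 CPM in the batch 1 cultures and 109 and 111 CPM in the batch 2 cultures), with no overlap (log2 fold change 2.11, SE 0.13, edgeR adjusted p = 2.70e-06). Nuclear-encoded subunits of oxidative phosphorylation were 16 of 32 higher and 1 lower (Atp5b), and Cox7c had a log2 fold change of 1.51 (SE 0.09). The proteasome list was 11 of 31 higher, and 5 or 6 higher without tumour 1, 3 or 4, batch 1 culture 1 or batch 2 culture 2. The lysosome list was 10 of 28 higher and 5 lower, the latter 3 without tumour 2, 3, 4 or 5 or batch 1 culture 1. Nrf2 targets were 5 of 16 higher (3 without batch 1 culture 1) and 6 lower, and autophagy genes 5 of 16 higher and 6 lower. The ESCRT list was 8 of 24 higher and 2 lower (Stam and Mvb12b). Over all genes tested 30.9% were higher and 25.6% lower. Of genes that did not enter through the tumours alone 24.7% were higher. Counted in that way, the higher shares were 35.5% for the proteasome, 33.3% for ESCRT, 30.8% for the lysosome and 31.2% for the Nrf2 and for the autophagy list. These shares were somewhat above 24.7%. Malat1, a nuclear noncoding RNA, was lower in tumours (405, 746, 486, 392 and 849.5 CPM in tumours 1 to 5, 1324 and 983 CPM in the batch 1 cultures and 964 and 1265 CPM in the batch 2 cultures), with no overlap (log2 fold change -0.98, SE 0.25, edgeR adjusted p = 0.00698).

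**Figure D4:**
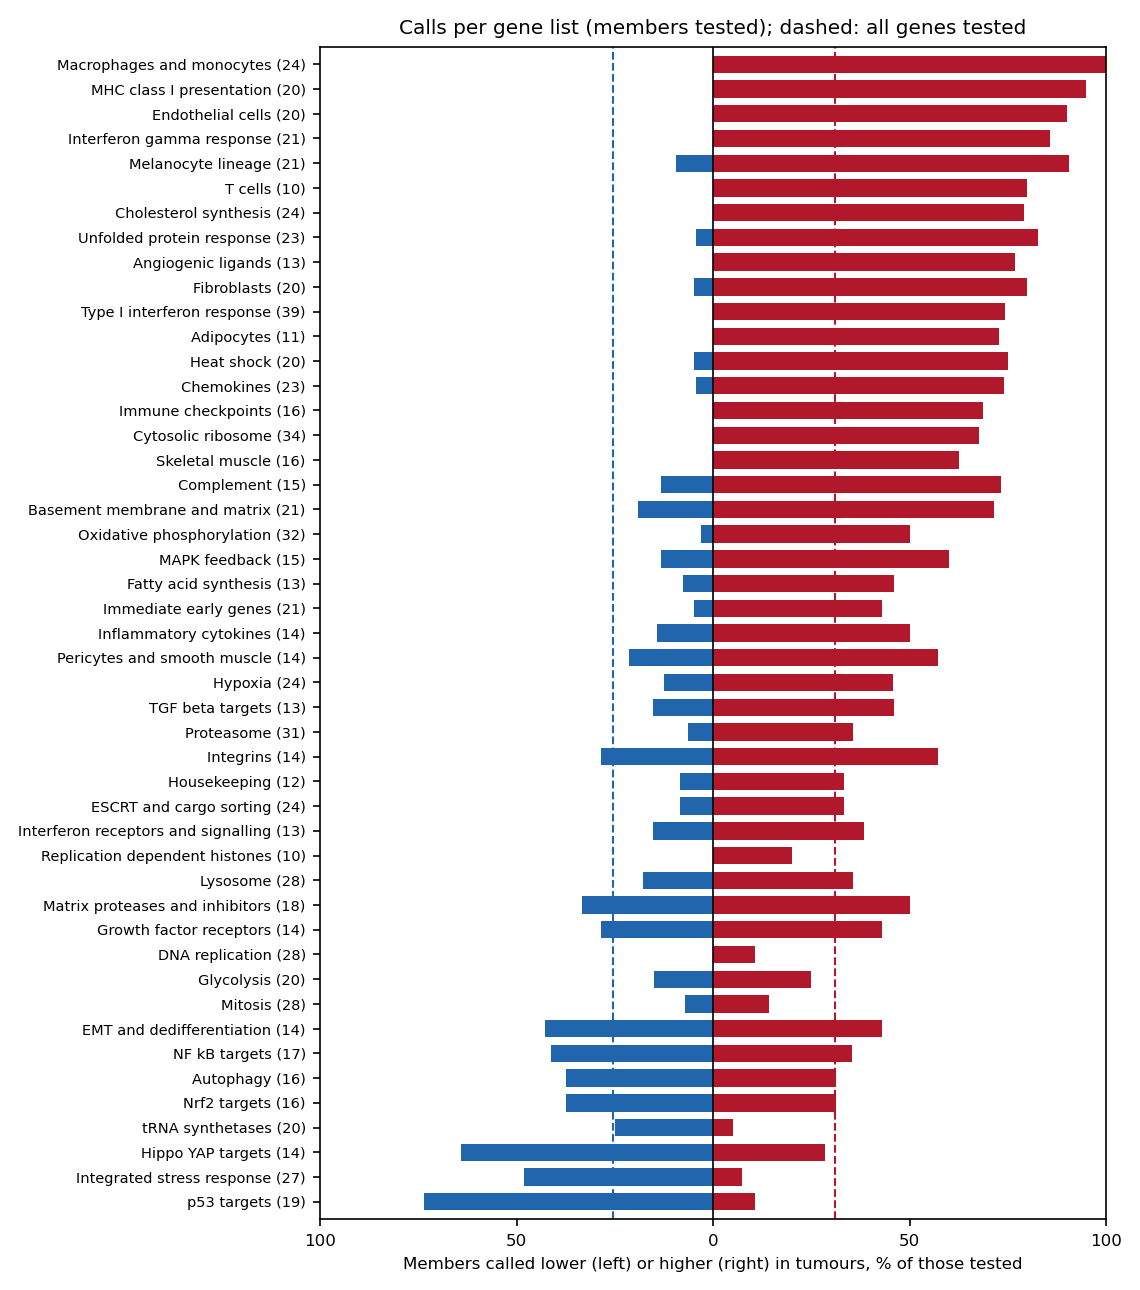
Share of the tested members of each list with at least 10 tested genes that were called higher (right) or lower (left) in tumours, in % of the members tested. The dashed lines give the shares of all genes tested, 30.9% higher and 25.6% lower; the p53, stress response and Hippo lists extend furthest past the left line, and lists of host cells, MHC and pigment genes past the right line. Members that entered the test through the tumours alone are included. Of the 27 stress response genes, 2 passed as lower against batch 1 alone and 20 against batch 2 alone.

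Among abundant genes with no overlap between groups, the 12 largest rises were those of Col1a2, Col1a1, Fam174b, Bfsp2, Car9, Gsta4, Lyz2, Met, Tmsb4x, Fndc3c1, Adm and Fos. Several of them were even across the 5 tumours, unlike the collagen and leukocyte genes. Bfsp2 (chromosome 9, 103424924 to 103480420), a filament protein known from the eye lens, measured 173, 153, 194, 139 and 173 CPM in tumours 1 to 5, 5.83 and 5.87 CPM in the batch 1 cultures and 4.46 and 4.38 CPM in the batch 2 cultures (log2 fold change 5.03, SE 0.13, edgeR adjusted p = 3.95e-08). Fam174b (chromosome 7, 73740302 to 73776919) measured 227, 241, 203, 217 and 219 CPM in tumours 1 to 5, 9.25 and 3.69 CPM in the batch 1 cultures and 6.8 and 6.69 CPM in the batch 2 cultures (log2 fold change 5.05, SE 0.23, edgeR adjusted p = 6.09e-07). Both genes were within a 1.5-fold range in tumours. Gsta4, a glutathione transferase, measured 149, 171, 122, 81.1 and 83.5 CPM in tumours 1 to 5, 13.1 and 1.34 CPM in the batch 1 cultures and 4.6 and 3.96 CPM in the batch 2 cultures (log2 fold change 4.42, SE 0.52, edgeR adjusted p = 8.57e-05). Batch 1 culture 2 was the lowest library for Gsta4, and without batch 1 culture 1 the log2 fold change was 5.65. Tmsb4x, which binds free actin, measured 116, 262, 119, 162 and 325 CPM in tumours 1 to 5, 13 and 50.6 CPM in the batch 1 cultures and 5.01 and 6.44 CPM in the batch 2 cultures, highest in tumours 2 and 5.

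By the same rule, which asks for no overlap, the 12 largest falls were those of Tg, Dmpk, Cp, Wisp1, Map1a, Prkcq, Tenm4, Notch1, Aldh1l2, Pltp, Gadd45a and Itgb5. Prkcq (chromosome 2, 11172108 to 11301222), a protein kinase C, measured 34.4, 30.9, 32.8, 23.3 and 30.9 CPM in tumours 1 to 5, 170.5 and 186 CPM in the batch 1 cultures and 403 and 447 CPM in the batch 2 cultures. The tumours were tight and the batch 2 cultures were above those of batch 1 (log2 fold change -3.18, SE 0.12, edgeR adjusted p = 2.13e-07). Notch1 (chromosome 2, 26457903 to 26516663), the receptor of Delta and Jagged ligands, measured 7.74, 15.5, 9.67, 9.95 and 14.2 CPM in tumours 1 to 5, 68.7 and 95.1 CPM in the batch 1 cultures and 116 and 139.8 CPM in the batch 2 cultures (log2 fold change -3.16, SE 0.21, edgeR adjusted p = 3.28e-06). Tg (chromosome 15, 66670753 to 66850721), known as the thyroid hormone precursor, measured 6.28, 4.93, 6.11, 4.28 and 4.82 CPM in tumours 1 to 5, 27.6 and 46.2 CPM in the batch 1 cultures and 140.0 and 149 CPM in the batch 2 cultures (log2 fold change -3.79, SE 0.18, edgeR adjusted p = 6.38e-07). That every tumour was below every culture in these 3 genes follows from the rule that chose them.

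Other falls had cultures that differed by batch or by library. Dmpk, a muscle protein kinase, measured 7.49, 17.2, 11.9, 10.6 and 18.7 CPM in tumours 1 to 5, 283 and 243 CPM in the batch 1 cultures and 138 and 119 CPM in the batch 2 cultures, with batch 1 above batch 2 (log2 fold change -3.80, SE 0.24, edgeR adjusted p = 2.70e-06). Cp, the copper oxidase ceruloplasmin, measured 19, 25.4, 14.2, 23.2 and 25.4 CPM in tumours 1 to 5, 123 and 1049 CPM in the batch 1 cultures and 114 and 138 CPM in the batch 2 cultures, with batch 1 culture 2 far above the rest. Its log2 fold change was -4.77 against batch 1 and -2.56 against batch 2, and -2.55 against both without that culture. Aldh1l2, a mitochondrial enzyme of folate metabolism, measured 113, 49.2, 85.9, 121 and 139.6 CPM in tumours 1 to 5, 649.6 and 782 CPM in the batch 1 cultures and 918 and 1330.2 CPM in the batch 2 cultures (log2 fold change -3.14, SE 0.28, edgeR adjusted p = 1.56e-05). Map1a, which binds microtubules, measured 4.23, 4.73, 5.93, 6.59 and 8.96 CPM in tumours 1 to 5, 95.1 and 55.3 CPM in the batch 1 cultures and 61 and 67.3 CPM in the batch 2 cultures (log2 fold change -3.52, SE 0.24, edgeR adjusted p = 3.61e-06).

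The tumours and cultures with the shRNA against Hgs form a comparison that shares no library with this one, though the sequencing of tumours and cultures may differ in the same way. There 3518 of 14008 genes (25.1%) were called higher and 2887 (20.6%) lower by the same rule. Of the 4189 genes called higher with shCTL that were tested there, 3820 had the same sign and 2699 were called higher (64.4% of those 4189, and 80.3% of the list called higher with shHrs that was tested here). Of 3518 genes called lower, 3225 had the same sign and 2012 were called lower (57.2%, and 70.5% of the other list). Called in the opposite direction were 24 and 20 genes.

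The difference between the tumour-culture changes of shCTL and shHrs was tested directly and passed for 522 of 14458 genes (3.61%), 215 with the larger value for shCTL and 307 with the smaller. Mitosis genes were the list with most such genes, 21 of 28, with a median of 0.11 for shCTL and 1.33 for shHrs. Heat shock genes followed with 9 of 20, with medians of 0.85 and -0.02. The number of genes that passed was 125 without shHrs batch 2 culture 2 and 2194 without shHrs batch 1 culture 1, the lowest and highest of all libraries left out in turn. Met, Mitf and Tyr did not pass this test of the difference, with edgeR adjusted p of 0.351, 0.918 and 0.0982.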

How the data were processed

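RNA was measured by sequencing of NEBNext Ultra libraries on Illumina HiSeq instruments, per the labels' protocols. The authors deposited whole-number read counts per gene symbol. The submitters' processing notes list the build mm10 and the tools STAR 2.4.0h2 and DESeq. What counted the reads, with which gene models and strand option, is not given in the sources used here. Reads of overlapping or near-identical genes therefore cannot be told apart.

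Counts were analysed with edgeR 4.0.16 in R 4.3.3. Of 23453 symbols, 13931 passed filterByExpr (minimum count 10). TMM scaling was used, with quasi-likelihood tests. P-values were adjusted by Benjamini and Hochberg's method across those 13931 genes, and 0.05 was the threshold. CPM is the count per 1000000 counts of the TMM-scaled library. The code was tested on simulated data. DESeq2 1.42.0, limma 3.58.1 (voom), other scalings and filters, and each library left out in turn were alternatives. Leaving out tumours 2 and 5 together was chosen after seeing the data.

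The members and the gene lists were chosen with earlier results of these data known. Of 1061 list entries, 1029 matched by symbol and 15 by synonym, and 17 were absent. The text names Hgs, Xist, the 12 largest changes in each direction among genes with no overlap and a mean log2 CPM of at least 4, up to 3 called members of each list with the largest changes, fixed marker genes and the largest differences from the shHrs comparison, and says where a gene falls outside these. Some genes that this rule names are not reported here. A gene with 0 counts in all cultures was set at a floor of 3 counts over the 4 cultures, and ratios on 1 to 3 counts carry 95% intervals that cover counting error only. Gene positions come from the GENCODE annotation of GRCm38.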

Additional observations from a re-analysis of the deposited data

Results flagged for a closer look

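In 11 genes 1 tumour stood far from the other 4, by the gap to its neighbour relative to the whole range. Of 246 values tested (named genes and list levels), 12 stood apart in this way. Chance alone does this in about 1 in 20 groups, so the number is near what chance gives. Tumour 1 was the high one for Fos (162 CPM), Fosb (45.8 CPM), Hspa1b (148 CPM) and Chac1 (93.2 CPM). Tumour 5 was the high one for Ckm (25.7 CPM), Itgb5 (28.2 CPM), Manf (269.7 CPM), Nfkbiz (15.4 CPM) and Cxcr7 (12.6 CPM). Tumour 4 was the high one for Etv4 (14.9 CPM) and Psma4 (159 CPM), and it was the low one for the erythroid list, with a mean log2 CPM of 0.12.

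In 24 named genes the tumour-culture difference itself differed between shCTL and shHrs, by an interaction term in edgeR's quasi-likelihood test. The values below are the log2 fold change of shCTL minus that of shHrs. It was positive for Rhox5 (5.43), Mlip (5.37), Ptchd1 (5.27), Angptl4 (5.26), Itga3 (4.18), Hspa1b (2.40), Oas1a (2.28), Ctgf (2.25), Hsph1 (1.63), Bfsp2 (1.53), Fam174b (1.23) and Hgs (0.82). It was negative for Foxs1 (-4.87), Rbp7 (-4.25), Wdr95 (-4.15), Psd3 (-3.67), Nid2 (-3.50), Map1a (-1.69), Nfkbiz (-1.58), Ccnb1 (-1.25), Birc5 (-1.23), Bub1 (-1.12), Wipi1 (-0.9997) and Mvb12b (-0.55). Fitted values of genes with a group at or near 0 counts depend on the prior count.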

How the results depend on the processing

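No gene called in the comparison of control tumours with control cultures was called in the opposite direction under any alternative that tested it. The 4307 higher and 3568 lower genes became 2689 and 2233 with the threshold applied against each batch on its own. With library totals in place of TMM scaling they became 3792 and 4068, so the excess of higher over lower genes depends on the scaling. Leaving out 1 library in turn gave 3776 (without tumour 2) to 4456 (without batch 1 culture 2) higher and 3153 (without batch 2 culture 2) to 3739 (without batch 1 culture 2) lower genes, 5177 to 6237 calls against batch 1, and 4423 (without batch 2 culture 2) to 7895 calls against batch 2. Replicate numbers were shared between groups, and correlations of the deviations of samples with the same number ran from -0.05 to 0.06. In a group of 2 cultures the deviations mirror each other, so these correlations cannot exclude a pairing. The main fit used no replicate block. With the replicate block the calls were 2749 higher and 1811 lower, 3242 against batch 1, 4011 against batch 2 and 241 for the difference from shHrs, and ribosomal genes had 6 of 34 higher. The difference from shHrs gave 522 genes in edgeR, 1410 in DESeq2 and 125 to 2194 with 1 library left out. Hgs changed sign without passing the test, at -0.057 with library totals, -0.0035 without tumour 3, -0.047 without batch 1 culture 1 and -0.017 without batch 2 culture 1, and reached 0.082 without batch 1 culture 2 and 0.092 without tumours 2 and 5. Of 186 named genes that were called, 31 no longer passed the adjusted p threshold with limma voom and 17 when some single library was left out. Calls lost only through the direction rule were not counted here. Cholesterol genes had 10 of 24 higher in a fit over all 18 libraries. The causes were not tested. Counts near 0 in culture limit the precision of the folds of host genes.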
